A study of Mus musculus with 23 samples.

Results

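The growth of the genotype effect between 3 and 6 months was measured in mouse striatum, the input nucleus of the basal ganglia. It is the difference of differences: dKO minus WT at 6 months, less dKO minus WT at 3 months, on a log2 scale. A positive growth means that the dKO gained on WT with age, and a negative one that it lost ground, whatever both genotypes did in normal ageing. All arrays labelled 3 or 6 months entered, 17 of the 23 in the series: 6 of 6-month dKO, 4 of 6-month WT, 3 of 3-month dKO and 4 of 3-month WT mice. The dKO mice carry the genotype label "Ezh1; Ezh2 Camk Cre", and the controls are labelled WT. The label is read here as a double knockout of Ezh1 and Ezh2 with a Cre recombinase under a Camk promoter. Camk promoters are active in excitatory and striatal projection neurons, so glia and other cells of the tissue can keep a gene that Cre deletes. Whether Cre deletes both genes, or Ezh1 is absent from all cells, is not given in the labels. Which Camk promoter was used, and whether the controls carried floxed alleles, is not given in the labels. The design matched littermate controls to mutants by age and sex, and states at least 3 biological replicates a group. Probe sets with exactly 1 gene symbol were tested, 38143 of 45101, which stand for 20694 genes.

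Polycomb repressive complex 2 (PRC2) carries either Ezh1 or Ezh2 as its enzyme. It methylates lysine 27 of histone H3 and so keeps developmental regulators silent. Its classical targets are the Hox clusters and other transcription factors that give embryonic tissues their identity, together with cell cycle inhibitors of the Cdkn2 locus. Most striatal neurons are medium spiny neurons, which express either the dopamine receptor Drd1 (direct pathway) or Drd2 (indirect pathway). In cells that no longer divide, the methyl mark can outlast its enzyme.

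The 250 bases before the RefSeq gene start (GRCm38.p6) are shown for Hoxd10 and Hoxa9, with the largest gains, and for Gpx6 and Drd2, with large losses, because PRC2 is known for its binding at promoters rich in CG. Capitals mark every CG, which reads the same on both strands.
Hoxd10, chr2:74691641-74691890, plus strand: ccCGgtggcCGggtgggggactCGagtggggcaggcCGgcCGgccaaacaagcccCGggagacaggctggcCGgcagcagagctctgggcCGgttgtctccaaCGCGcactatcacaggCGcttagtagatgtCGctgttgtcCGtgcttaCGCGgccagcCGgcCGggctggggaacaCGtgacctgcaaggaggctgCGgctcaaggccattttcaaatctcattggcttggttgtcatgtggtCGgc
Hoxa9, chr6:52227371-52227620, minus strand: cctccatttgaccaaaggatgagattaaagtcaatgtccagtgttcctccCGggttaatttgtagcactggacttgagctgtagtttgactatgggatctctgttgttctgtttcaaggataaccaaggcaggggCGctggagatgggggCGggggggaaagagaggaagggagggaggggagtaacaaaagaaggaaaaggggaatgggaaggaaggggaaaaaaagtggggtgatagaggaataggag
Gpx6, chr13:21311953-21312202, plus strand: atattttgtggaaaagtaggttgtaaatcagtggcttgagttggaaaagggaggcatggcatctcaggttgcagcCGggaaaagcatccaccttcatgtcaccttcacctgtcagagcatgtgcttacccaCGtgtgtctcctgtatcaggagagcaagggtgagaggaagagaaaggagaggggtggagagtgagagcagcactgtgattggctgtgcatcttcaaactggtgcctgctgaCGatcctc
Drd2, chr9:49340153-49340402, plus strand: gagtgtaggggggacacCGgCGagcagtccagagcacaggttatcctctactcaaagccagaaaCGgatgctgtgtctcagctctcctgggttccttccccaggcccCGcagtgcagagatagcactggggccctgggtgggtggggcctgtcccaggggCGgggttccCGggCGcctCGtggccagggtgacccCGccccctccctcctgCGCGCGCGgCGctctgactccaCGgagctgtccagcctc
The stretch of Hoxd10 holds 20 CG in 250 bases and that of Drd2 holds 15, while those of Hoxa9 and Gpx6 hold 3 each. Over the 14413 tested genes with such a stretch the median was 13 CG (quartiles 5 and 20), and 97.2% held at least 1. A comparison of promoters between gained and lost genes is void, because fewer than 80% of the called genes (71%) had one in the table. No methylation or binding was measured in these mice.

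Deposited values are log2 values centred per probe set, so each gene's own level is lost, levels cannot be compared between genes, and the striatal label could not be checked against marker levels. The number of arrays limits the precision. Ezh1 was lower in dKO at both ages, with an effect of -2.10 at 6 months and -2.0 at 3 months. Ezh2 had an effect of -0.43 at 6 months and -0.45 at 3 months. Growth was not called for either gene, with -0.10 ± 0.25 (limma adjusted p = 0.919) for Ezh1 and 0.02 ± 0.18 (limma adjusted p = 0.978) for Ezh2, and the other 3 Ezh1 probe sets gave growth of -0.15, 0.05 and 0.34. Whether the probes lie in the deleted part is not known here. Xist, which female cells express, was low on 2 of 6 arrays of 6-month dKO, 1 of 4 of 6-month WT, 1 of 3 of 3-month dKO and 2 of 4 of 3-month WT. Choroid plexus genes were high on 6-month dKO replicate 2 and 6-month WT replicate 1, with medians of 2.96 and 2.59. Cortical neuron genes ran from -0.44 to 0.06 in 6-month dKO, -0.89 to -0.08 in 6-month WT, -0.14 to 0.72 in 3-month dKO and 0.10 to 0.80 in 3-month WT. The part of sex and of dissection in the results was not tested beyond the values given with them.

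Growth of the dKO effect was called, in either direction, for a small group of genes. Of the probe sets tested, 123 (0.322%) had a higher and 171 (0.448%) a lower dKO effect at 6 than at 3 months (limma, Benjamini-Hochberg adjusted p under 0.05, two-sided), and 2027 and 2622 had an unadjusted p under 0.05. With 1 probe set for each gene, the one with the largest SD, 99 genes (0.478%) were called higher and 111 (0.536%) lower. That choice favours probe sets that shift, so these shares and the sizes per gene can lean upwards. The median growth over all genes was 0.00. Change with age within a genotype was far more common. In dKO, 4257 probe sets (11.2%) were higher and 5386 (14.1%) lower at 6 months than at 3 months, against 2331 (6.11%) and 3443 (9.03%) in WT. These comparisons share their arrays with the growth, and age cannot be told apart from any batch of arrays or animals that differed between the ages.

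The courses of the genes called higher and lower are described next. The same values made the calls, which favours some courses by construction, so nothing is read from differences between them. Among the 99 called higher, the median effect was 1.68 at 6 months and 0.21 at 3 months, and the median change with age was 1.23 in dKO and 0.03 in WT. In 85 of them the dKO change with age was the larger in size, and in 14 the WT change was. An effect of at least 1 in the same direction was already there at 3 months in 12 genes, and one of 0.25 to 1 in 33. In 44 genes it was under 0.25 in size at 3 months, and in 10 it was at least 0.25 in the opposite direction. Growth reached at least 2-fold, a log2 value of 1, in 73. Among the 111 called lower, the median effect was -0.79 at 6 months and 0.12 at 3 months, and the median change with age was -0.92 in dKO and 0.12 in WT. There, 71 genes had an effect under 0.25 in size at 3 months and 36 had been higher in dKO by at least 0.25, while only 4 had already been lower by 0.25 to 1 and none by more. Growth was at least 2-fold in 56, and the dKO change was the larger one in 89.

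**Figure D1:**
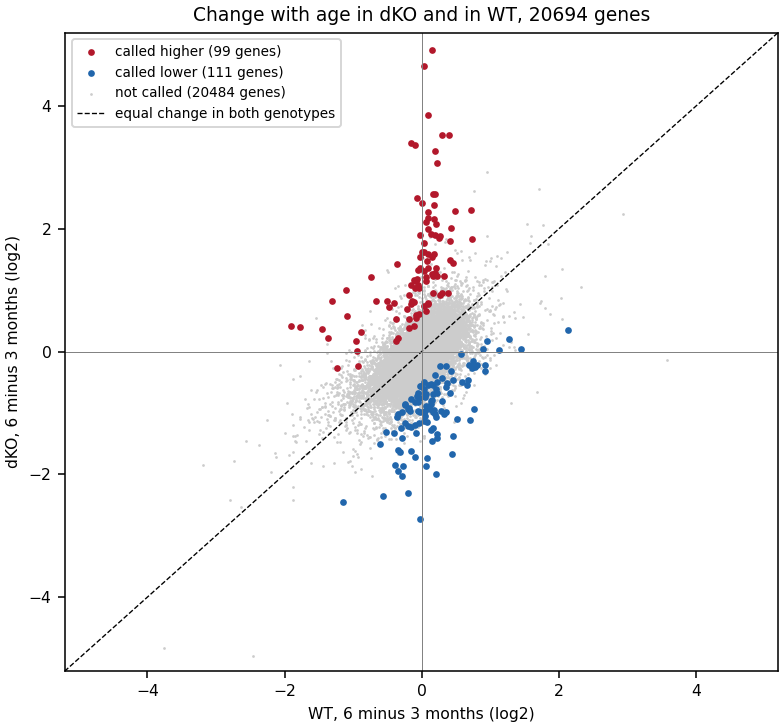
Change at 6 months over 3 months in dKO (y axis) against that in WT (x axis), both log2, for 20694 genes. Points are genes, coloured by the call on growth, and the dashed line marks equal change. Most of the 99 genes called higher stand above a WT change near 0, up to a dKO change of 4.91 for Hoxd10, and a smaller arm lies to the left, where WT fell.

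All 6 arrays of 6-month dKO lay above the other 11 in 82 of the 99 genes called higher (2.64% of all genes) and below them in 76 of the 111 called lower (3.4% of all genes). The same values made these calls, so nothing is read from the difference. The counts depended on single arrays. Without 3-month dKO replicate 2 they were 56 higher and 50 lower, and without 6-month dKO replicate 2, one of the arrays high in choroid plexus genes, 214 and 354. Leaving out 3-month WT replicates 2, 3 or 4 gave 75, 81 or 72 higher and 96, 99 or 85 lower. Without 6-month WT replicate 4 the counts were 81 and 98, and without 6-month WT replicate 3 they were 84 and 98. Of the 93 called genes that the rule names or that are called list members, 48 stayed called without any 1 array, and 43 of the other 45 lost their call without 3-month dKO replicate 2. Of these 93 genes, 59 called higher and 34 called lower, a core of 20 was called in all 15 other settings as well: Hoxd10, Hoxa9, Hoxc10, Hoxc8, Hoxa5, Hoxa7, Hoxa10, Hoxd11, Tbx20, Tbx3, Lbx1, Hand2, Sim2, Lhx5, Gata2, Pax1, En1 and Pitx1 among the higher, and Gpx6 and Gkn3 among the lower. The rest of the 210 called genes were not followed gene by gene. The core may thus be incomplete, and its make-up depends on which genes were named or listed.

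Hox genes, the homeobox factors that pattern the body axis and are normally silent in forebrain, carried the largest gains. Of 35 measured members 19 (54.3%) were called higher and 0 lower, against 0.478% and 0.536% of all genes. Their median growth was 0.96, against 0.00 over all genes, with a median effect of 1.32 at 6 months and 0.24 at 3 months. The median over the list on each array was 0.93 to 1.40 in 6-month dKO, -0.20 to 0.00 in 6-month WT, 0.01 to 0.05 in 3-month dKO and -0.26 to -0.15 in 3-month WT. So the 3-month dKO arrays stood slightly above their WT arrays, and the 6-month dKO arrays far above all others. On the 6-month arrays Hoxd10 was at 4.55 to 5.57 (median 5.23) in 6-month dKO, against -0.37, 0.15, 0.00 and 0.08 in WT. The 3-month values were 0.43, 0.10 and 0.07 in dKO, against -0.21, -0.13, -0.13 and -0.26 in WT. The values of Hoxa9 were 4.26 to 4.94 (median 4.70) in 6-month dKO, against -0.09, -0.02, -0.08 and -0.05 in 6-month WT, and at 3 months 0.04, -0.09 and 0.00 in dKO, against -0.05, -0.12, 0.00 and -0.18 in WT. At 3 months the dKO arrays lay slightly above WT for Hoxd10 and within the WT spread or next to it for Hoxa9, and at 6 months they stood above every other array for both. The growth was 4.76 ± 0.27 (limma adjusted p = 1.41e-08) for Hoxd10 and 4.63 ± 0.17 (limma adjusted p = 2.81e-11) for Hoxa9. The second Hoxa9 probe set gave 0.58 ± 0.18 (adjusted p = 0.153), and the mean over both 2.61. Where genes have several probe sets, the growth of their mean was smaller by over 1.5 times for Hoxa5 (2.0), Hoxa10 (1.06), Hoxa4 (0.84) and Hoxb3 (0.83), all still called, and for Hoxc5 (0.83), Hoxd13 (0.70) and Hoxd3 (0.54), which were not. At 6 weeks Hoxa9 was at 0.68, 0.24 and -0.19 in dKO, against 0.00, -0.05 and 0.00 in WT.

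Not all Hox genes started from WT values. For Hoxc8, 6-month dKO arrays held 4.68 to 5.28 (median 4.94), against -0.55, -0.44, -0.96 and -0.48 in WT. Those of 3 months held 1.65, 1.70 and 1.40 in dKO, against -0.81, -0.56, -0.30 and -0.35 in WT. Hoxc8 was thus raised on every dKO array of 3 months and rose by a further 3.48 ± 0.21 (limma adjusted p = 3.05e-08). Hoxd8 also had an early effect, 4.04 at 6 months and 1.63 at 3 months, with growth of 2.41 ± 0.20 (limma adjusted p = 2.95e-06). Hoxc10 gave effects of 4.75 at 6 months and 0.99 at 3 months and growth of 3.76 ± 0.22 (limma adjusted p = 1.41e-08), and Hoxa5 gave 3.62 at 6 months and 0.49 at 3 months and growth of 3.14 ± 0.27 (limma adjusted p = 3.03e-06). Hoxd9, Hoxa10, Hoxd11, Hoxa7 and Hoxa4 followed with growth of 2.43, 2.21, 1.73, 1.62 and 1.40 (limma adjusted p = 0.00149, 6.03e-05, 0.00034, 4.64e-05 and 0.00302). The call reached each of the 4 clusters and positions from Hoxb3 and Hoxd3 to Hoxb13 and Hoxd13. In the Hoxb cluster the growth was 1.27 for Hoxb3, 1.41 for Hoxb5, 0.79 for Hoxb6, 0.67 for Hoxb9 and 1.14 for Hoxb13. Hoxb5, Hoxb6, Hoxb9, Hoxb13 and Hoxc5 each lost the call without 3-month dKO replicate 2 or 3-month WT replicate 2, among other arrays, and kept it in only 10, 10, 6, 5 and 4 of the 17 fits that leave out 1 array, with adjusted p up to 0.144. The other 14 called members kept it in all 17.

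Some Hox genes near called ones did not pass the test. Hoxd12 gave -0.25 ± 0.21, adjusted p = 0.688, and Hoxd1 gave -0.40 ± 0.19, adjusted p = 0.393, the only Hox genes with negative growth. Hoxb1 gave 0.09 ± 0.13, adjusted p = 0.825, and Hoxb7 gave 0.11 ± 0.13, adjusted p = 0.803, with effects of 0.07 at 6 months and -0.04 at 3 months. Hoxc4 had an effect of 2.36 at 6 months and 1.61 at 3 months, and its growth of 0.75 ± 0.27 missed the threshold (limma adjusted p = 0.249). These members were chosen after their values were seen. Without 3-month dKO replicate 2 the number of Hox genes called higher was 14, and on high-Xist arrays only it was 10. With the cortical list as a covariate it was 14 as well, and with Xist as a covariate it was 22.

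**Figure D2:**
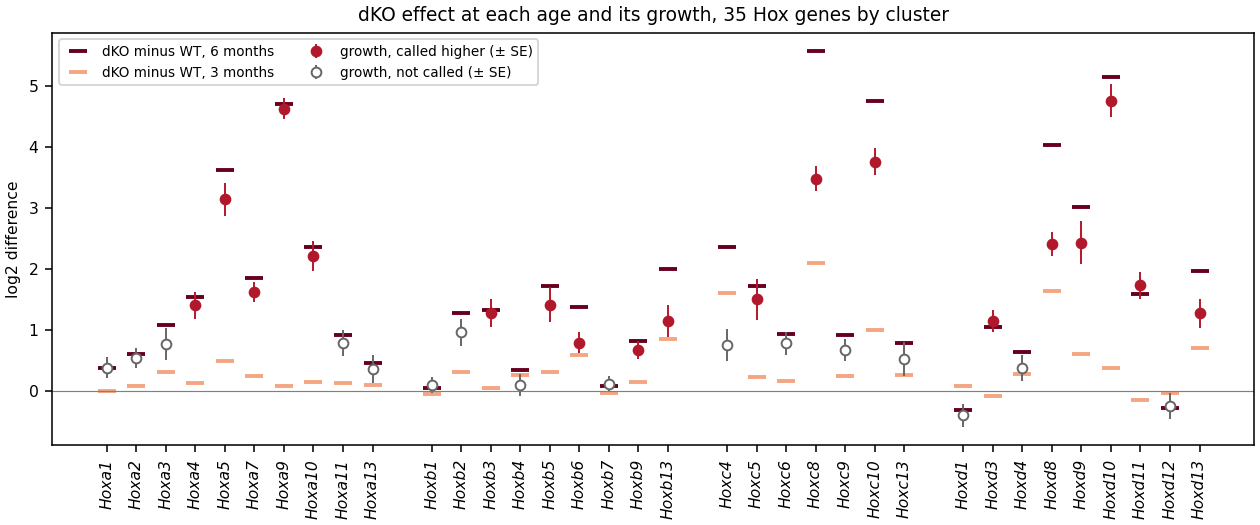
Log2 dKO minus WT of 35 Hox genes at 6 months (dark dashes) and at 3 months (light dashes), with the growth between the ages as points ± SE (filled: called higher, open: not called), ordered by cluster and number. Points reach 4.76 for Hoxd10 and 4.63 for Hoxa9. Hoxc8, Hoxd8 and Hoxc4 have the largest effects at 3 months.

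Other developmental transcription factors, the homeobox, T-box, GATA, POU, PAX and forkhead genes that set cell identity in embryos, gained as well, to a smaller extent. Of 138 measured, 28 (20.3%) were called higher and 0 lower, against 0.478% and 0.536% of all genes. The median growth was 0.30, with a median effect of 0.48 at 6 months and 0.23 at 3 months. The median over this list was 0.41 to 0.63 on 6-month dKO arrays, -0.14 to 0.01 in 6-month WT, 0.00 to 0.08 in 3-month dKO and -0.27 to -0.18 in 3-month WT. Tbx20 values were 2.51 to 4.38 (median 3.35) in 6-month dKO, against -0.21, -0.14, -0.08 and -0.12 in 6-month WT. In 3-month dKO they were -0.03, 0.11 and 0.14, against 0.00, -0.06, 0.06 and 0.05 in 3-month WT. Tbx20, a T-box factor of the developing heart, was thus at WT values at 3 months and above all other arrays at 6 months, with growth of 3.55 ± 0.38 (limma adjusted p = 4.64e-05). The mean over its 3 probe sets grew by 1.40. In 6-month dKO, Hand2 lay at 2.68 to 3.60 (median 3.31), against -0.24, -0.12, 0.12 and 0.00 in 6-month WT. Values at 3 months were 0.25, 0.21 and -0.12 in dKO, against -0.12, -0.14, -0.34 and -0.50 in WT. The 3-month groups touched, and the 6-month dKO arrays stood above all others. Hand2, a basic helix-loop-helix factor of heart, limb and sympathetic neurons, grew by 2.85 ± 0.25 (limma adjusted p = 3.03e-06), and Sim2, a factor of midline and muscle development, by 2.57 ± 0.21 (limma adjusted p = 2.49e-06). The other probe sets gave 0.40 and 0.05 for Hand2 and 0.34 for Sim2, and the means over probe sets grew by 1.10 and 1.46, both called. Pitx1, which specifies the hindlimb, grew by 2.09 ± 0.17 (limma adjusted p = 2.49e-06), Gata2, a factor of blood and midbrain, by 1.93 ± 0.17 (limma adjusted p = 3.59e-06), and En1, a factor of the midbrain and hindbrain, by 1.78 ± 0.21 (limma adjusted p = 0.000195).

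A second set of these factors was already raised at 3 months. Tbx2, a T-box factor of heart and limb, had effects of 3.33 at 6 months and 1.13 at 3 months. Barx1, a factor of jaw and stomach, had 3.25 at 6 months and 1.27 at 3 months. Pou4f1, a factor of sensory neurons, had 3.86 at 6 months and 1.94 at 3 months, and Tal1, a factor of blood formation, 3.69 at 6 months and 1.88 at 3 months. Their growth was 2.20, 1.98, 1.92 and 1.81 (limma adjusted p = 6.78e-05, 0.000144, 0.00453 and 0.00976), and Tal1 lost its call without 3-month dKO replicate 2 (adjusted p = 0.0526). Per array, Wt1 stood at 2.87 to 3.84 (median 3.38) in 6-month dKO, against -0.71, 0.11, -0.05 and -0.28 in 6-month WT, and at 1.61, 1.42 and 1.54 in 3-month dKO, against -0.20, -0.45, -0.69 and -0.57 in 3-month WT. Wt1, the Wilms tumour factor of kidney and gonad, was thus apart from WT on every dKO array of both ages, and it grew by 1.60 ± 0.28 (limma adjusted p = 0.00841). Under quantile normalization the growth of such genes shrank, to -0.03 for Wt1, 0.47 for Pou4f1, 0.60 for Tal1, 0.77 for Barx1, 1.0 for Tbx2 and 0.79 for Hoxd8, none of them called. Hand2 (1.76), Gata2 (1.13), En1 (1.17), Hoxa5 (1.99), Hoxd9 (1.50) and Lbx1 (1.92) were over 1.5 times smaller there and stayed called. That setting gave every array the same spread of values, and Wt1 had effects of 2.62 at 6 months and 2.65 at 3 months under it, against 3.60 and 2.0 as deposited. The count of called factors on this list was 11 under quantile normalization and 17 without 3-month dKO replicate 2. It was 16 on high-Xist arrays, 35 with Xist as a covariate and 39 without 6-month dKO replicate 2. The other 17 called factors grew by 0.66 to 2.04 (limma adjusted p = 2.95e-06 to 0.046). Of these, Foxf1, Lhx5, Tbx3, Pax1, Foxd1 and Lmx1b kept their call without each array, with growth on the chosen probe set of 2.04, 1.87, 1.78, 1.69, 1.23 and 1.02. The mean over probe sets grew by 1.29 for Foxf1, 0.76 for Tbx3 and 0.64 for Foxd1, all called, and by 0.42 for Lmx1b, which was not. Foxf1 (1.05) and Foxd1 (0.49) were not called under quantile normalization. Sim1, Six6, Tlx1, Lhx1, Lhx3, Foxa1, Dlx4, Runx3, Nkx2-3 and Tbx15 lost their call without at least 1 array, and all of these but Tbx15 lost it without 3-month dKO replicate 2. Members outside the naming rule were described after their values were seen.

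The other 2 of the 12 largest gains were Slc6a5 and Lbx1, which are on neither list. Slc6a5 ran from 2.86 to 5.14 (median 3.93) in 6-month dKO, against -0.46, -0.09, -0.05 and 0.00 in 6-month WT. At 3 months it was at 0.55, 0.54 and 0.20 in dKO, against -0.45, -0.32, -0.38 and -0.60 in WT. Slc6a5, the glycine transporter of glycinergic neurons in brainstem and spinal cord, grew by 3.24 ± 0.44 (limma adjusted p = 0.000854), and the mean over its 2 probe sets by 1.68. Under quantile normalization its adjusted p was 0.0706. On the 6-month arrays Lbx1 was at 3.13 to 3.89 (median 3.63) in 6-month dKO, against -0.32, -0.17, 0.05 and 0.20 in WT. The 3-month values were 0.50, 0.33 and 0.08 in dKO, against -0.07, -0.24, -0.10 and -0.65 in WT. Lbx1, a homeobox factor of dorsal spinal neurons and migrating muscle precursors, grew by 3.07 ± 0.23 (limma adjusted p = 4.42e-07). In both, dKO arrays already lay above WT at 3 months, by less than 1 log2 unit on average, and stood far above every other array at 6 months. Other called transcription factors, picked after their values were seen, were Mnx1, the homeobox factor of motor neurons (2.38), Dmrta2 (1.95), Hmx1 (1.59), Ebf3 (1.39), Tfap2a (1.38) and Tfap2b (1.38), each with its growth in parentheses. Genes of other kinds, picked in the same way, were Igfbp3, an insulin-like growth factor binding protein (1.21), Sstr3, a somatostatin receptor (1.60), the neurotrophin Ntf3 (1.12) and Cebpd, a factor of inflammation (0.90).

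Growth was not called for every gene that had been raised early. The values of Pou4f2 were 3.80 to 4.28 (median 4.0) in 6-month dKO, against -0.63, -0.88, -0.81 and -0.96 in 6-month WT, and at 3 months 3.03, 3.08 and 2.44 in dKO, against -1.12, -0.91, -0.21 and -1.20 in WT. For Twist1, 6-month dKO arrays held 3.65 to 4.66 (median 4.0), against 0.00, -0.21, -0.65 and -0.35 in WT. Those of 3 months held 3.04, 2.72 and 2.91 in dKO, against -0.56, -0.23, -0.50 and -0.71 in WT. These factors, one of retinal ganglion cells and one of mesoderm, stood more than 3 log2 units above WT at 3 months. Their growth of 1.10 ± 0.26 and 0.99 ± 0.26 was not called (limma adjusted p = 0.0557 and 0.1). In both, every 6-month dKO array lay above those of 3-month dKO, so the missed threshold does not show a lack of growth. Pou4f2 was called in 4 of 15 other settings, and under quantile normalization both signs turned, to -0.78 for Pou4f2 and -0.66 for Twist1, neither called. Irx5, an Iroquois factor, had effects of 2.94 at 6 months and 2.63 at 3 months and growth of 0.31 ± 0.25 (limma adjusted p = 0.679), which was -1.34 under quantile normalization and -0.18 on high-Xist arrays. Calcr, the calcitonin receptor, had effects of 2.26 at 6 months and 2.47 at 3 months, and Aldh1a2, the enzyme that makes retinoic acid, 2.35 at 6 months and 2.67 at 3 months. Their growth of -0.21 ± 0.35 and -0.32 ± 0.38 was not called either (limma adjusted p = 0.865 and 0.8), and both genes changed with age alike in the 2 genotypes, Calcr by 1.02 in dKO and 1.23 in WT, and Aldh1a2 by 0.66 in dKO and 0.98 in WT. Skor1, a corepressor that works with Lbx1 in the spinal cord, had effects of 4.13 at 6 months and 2.29 at 3 months. Its growth of 1.84 ± 0.45 missed the threshold (limma adjusted p = 0.0646). These 6 genes come from earlier results on the same arrays and were chosen with their values known.

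Brakes of the cell cycle were followed because Cdkn2a is a classical PRC2 target. Of 7 inhibitors measured 2 (28.6%), Cdkn2a and Cdkn1a, were called higher and 0 lower, against 0.478% and 0.536% of all genes. Cdkn2a values were 2.42 to 2.94 (median 2.68) in 6-month dKO, against -1.19, -0.72, -1.42 and -1.38 in 6-month WT. In 3-month dKO they were 1.02, 1.30 and 1.14, against -1.18, -0.88, -1.50 and -1.09 in 3-month WT. Cdkn2a, which encodes p16 and p19, was apart from WT on every dKO array at both ages and grew by 1.56 ± 0.21 (limma adjusted p = 0.00101) on effects of 3.87 at 6 months and 2.31 at 3 months. Its growth was 0.23 under quantile normalization and not called there. Its neighbour Cdkn2b gave 0.70 ± 0.20, adjusted p = 0.124. In 6-month dKO, Cdkn1a lay at 0.09 to 1.85 (median 0.57), against -0.67, -1.0, -0.71 and -0.99 in 6-month WT. Values at 3 months were 0.09, 0.00 and -0.74 in dKO, against 0.43, 0.40, 0.20 and 0.02 in WT. The 6-month WT arrays were low, and of the others only 3-month dKO replicate 3 was as low. Cdkn1a, the p21 gene that p53 induces, rose by 1.0 with age in dKO (limma adjusted p = 0.0185) and fell by 1.11 in WT (adjusted p = 0.017), and the growth was 2.10 ± 0.41 (limma adjusted p = 0.0193). Without 3-month dKO replicate 3, the lowest of its group, the adjusted p was 0.0586.

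Among 44 genes of the p53 and cell death list 1 (2.27%) was called higher and 0 lower, against 0.478% and 0.536% of all genes. It was Pmaip1, a death gene that antagonises Mcl1, and the median growth of the list was -0.02. Per array, Pmaip1 stood at 1.08 to 2.0 (median 1.40) in 6-month dKO, against -0.46, -1.32, -0.87 and -1.0 in 6-month WT, and at 0.50, 0.15 and 1.17 in 3-month dKO, against -0.28, -0.27, -0.46 and 0.00 in 3-month WT. The dKO arrays lay above WT at both ages, with a narrow gap at 3 months, and the 6-month WT arrays were the lowest. Its growth was 1.49 ± 0.30 (limma adjusted p = 0.0232), and it was not called without 6-month WT replicates 2 or 4, 3-month dKO replicates 1 or 2, or 3-month WT replicates 2 or 4 (adjusted p up to 0.103). Of 39 genes of the cell cycle and DNA replication none was called, with a median growth of -0.05. Of 58 genes of Wnt, BMP, hedgehog and retinoic acid signalling 1 (1.72%) was called higher and 2 (3.45%) lower. The ligand Wnt10a grew by 1.20 ± 0.24 (limma adjusted p = 0.023), with a change with age of 0.32 in dKO and -0.88 in WT. The ligand Wnt2 gave -1.12 ± 0.19 (limma adjusted p = 0.00705), and the Wnt antagonist Dkk2 -1.07 ± 0.20 (limma adjusted p = 0.0139), which left its effect at -0.27 at 6 months and 0.79 at 3 months. Wnt10a was not called without 6-month WT replicates 3 or 4, 3-month dKO replicate 2, or 3-month WT replicates 2 or 4 (adjusted p up to 0.103), and Dkk2 lost it without 3-month dKO replicate 2 (adjusted p = 0.0725). None of the 12 PRC2 subunits and 19 PRC1 subunits was called.

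**Figure D3:**
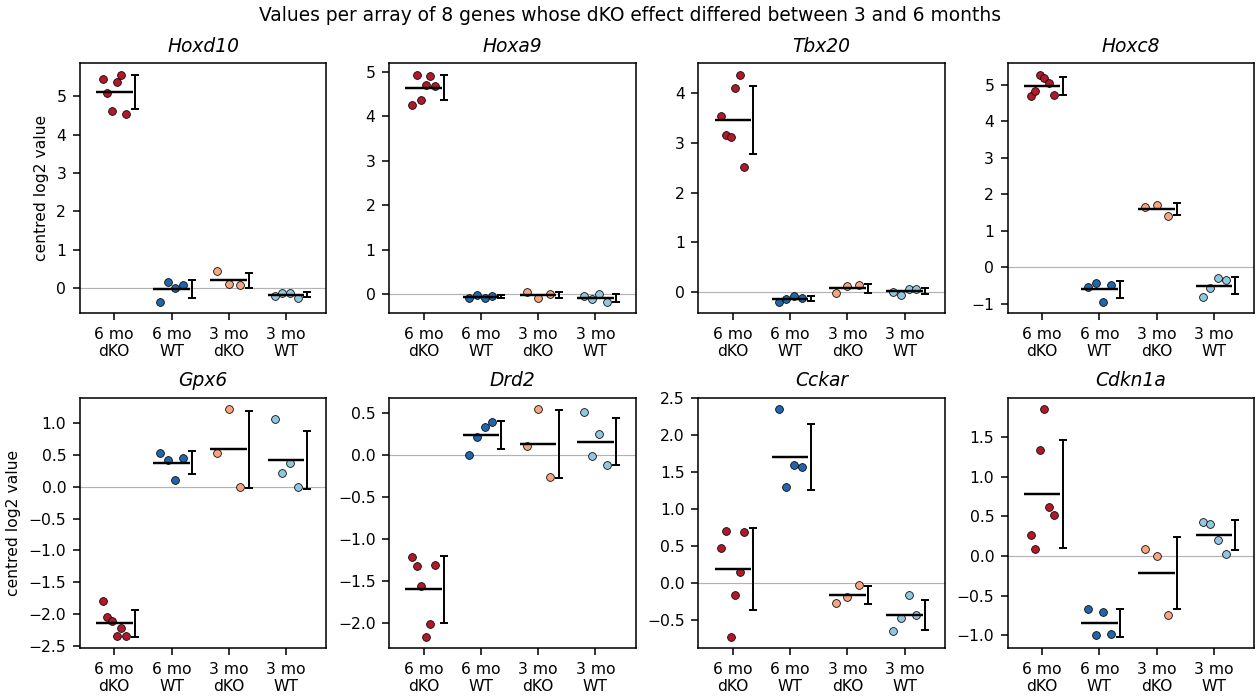
Centred log2 values on each array for 8 genes, in 6-month dKO, 6-month WT, 3-month dKO and 3-month WT. Points are arrays, lines are means and bars are ± SD. Hoxd10, Hoxa9 and Tbx20 are high in 6-month dKO alone, and Hoxc8 is raised in 3-month dKO too. Gpx6 and Drd2 are low in 6-month dKO alone. For Cckar and Cdkn1a the 6-month WT arrays moved away from the 3-month ones.

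The losses were led by genes of medium spiny neurons. Of 54 measured members 13 (24.1%) were called lower and 0 higher, against 0.536% and 0.478% of all genes. The median growth was -0.70, and 48 of 54 were negative, against 10298 of 20694 over all genes. The effect on this list had a median of -0.72 at 6 months and -0.04 at 3 months, so at 3 months the dKO list was close to WT. The median per array was -0.67 to -0.42 in 6-month dKO, 0.02 to 0.15 in 6-month WT, -0.04 to 0.32 in 3-month dKO and 0.00 to 0.34 in 3-month WT. In tissue RNA, fewer cells of a type and less RNA from each cell cannot be told apart. Without 3-month dKO replicate 2, 5 members were called. That array had the highest list median of its group (0.32) and the lowest cortical list median (-0.14). On high-Xist arrays 8 members were called, with Xist as a covariate 15, and with the cortical list as a covariate 8. The replicate block pairs arrays by numbers that did not pair the samples and has fewer degrees of freedom, and with it 1 was called. Without 3-month WT replicate 2 or 4, or 6-month WT replicate 3 or 4, 8 were.

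Gpx6 ran from -2.34 to -1.79 (median -2.16) in 6-month dKO, against 0.53, 0.42, 0.11 and 0.44 in 6-month WT. At 3 months it was at 0.53, 1.21 and 0.00 in dKO, against 1.05, 0.22, 0.37 and 0.00 in WT. Gpx6, a glutathione peroxidase, was below all other arrays on every 6-month dKO array, and its growth of -2.69 ± 0.32 (limma adjusted p = 0.000168) was the largest loss of any called gene. Ido1, which breaks down tryptophan, gave -1.94 ± 0.28 (limma adjusted p = 0.00137), and Pde7b, a cAMP phosphodiesterase, -1.74 ± 0.29 (limma adjusted p = 0.00649). Actn2, an actinin of dendritic spines and muscle, gave -1.60 ± 0.26 (limma adjusted p = 0.00487). Slc35d3, which acts in the transport of the Drd1 receptor, gave -1.56 ± 0.26 (limma adjusted p = 0.00649). These 4 were called without each array, but under trended and robust moderation and with the replicate block none of the 4 was. Ido1 was not called under quantile normalization either (adjusted p = 0.171), nor were Pde7b and Slc35d3 on high-Xist arrays. The other called members were the Rap activator Rasgrp2 (-1.41), the calcium release channel Ryr1 (-1.39), Syndig1l (-1.28), the formin Inf2 (-1.22), the retinoid receptor Rxrg (-1.10), Bcl11b (-0.94), the phosphatase Ptpn5 (-0.88) and the phosphodiesterase Pde1b (-0.85), with limma adjusted p from 0.0116 to 0.0341. Bcl11b is Ctip2, a transcription factor that these neurons need to mature. Each of these 8 lost its call without 3-month dKO replicate 2, with adjusted p up to 0.132 over the fits without 1 array. The mean over probe sets was not called for Rasgrp2 (-0.46), Ptpn5 (-0.47) or Ryr1 (-0.80).

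Several defining genes of medium spiny neurons did not pass the test. Ppp1r1b, the dopamine-regulated phosphoprotein DARPP-32, gave -0.39 ± 0.24, adjusted p = 0.555, and Rgs9, a regulator of dopamine signalling, -0.18 ± 0.29, adjusted p = 0.861. Foxp1 gave -0.73 ± 0.20, adjusted p = 0.113, and Adcy5 -0.67 ± 0.19, adjusted p = 0.12. The neuropeptides Penk, Tac1 and Pdyn gave -0.37 ± 0.14, -0.60 ± 0.17 and -0.61 ± 0.22 (limma adjusted p = 0.255, 0.135 and 0.241). These members were picked as the usual markers, after their values were known. The growth was thus unequal within the cell type's own genes, at -0.18 for Rgs9 and -2.69 for Gpx6, though no test was made between members.

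Receptors of both output pathways were among the losses. Of 7 indirect pathway genes 2 (28.6%) were called lower and all 7 were negative. Of 13 direct pathway genes 3 (23.1%), Drd1, Rxrg and Slc35d3, were called lower and 12 were negative. Rxrg and Slc35d3 are also on the medium spiny neuron list and were already counted there. Over all genes 0.536% were called lower and 10298 of 20694 were negative. On the 6-month arrays Drd2 was at -2.17 to -1.22 (median -1.45) in 6-month dKO, against 0.00, 0.21, 0.33 and 0.39 in WT. The 3-month values were 0.10, 0.54 and -0.27 in dKO, against 0.51, -0.02, 0.25 and -0.12 in WT. The genotypes overlapped at 3 months and lay well apart at 6 months. The values of Adora2a were -1.90 to -1.02 (median -1.69) in 6-month dKO, against 0.00, 0.01, 0.19 and 0.14 in 6-month WT, and at 3 months 0.04, 0.58 and -0.15 in dKO, against 0.57, -0.09, 0.37 and -0.16 in WT. In both genes the 6-month dKO arrays lay below all others, and the 3-month groups overlapped. Drd2, the dopamine receptor of the indirect pathway, gave -1.81 ± 0.30 (limma adjusted p = 0.00521), and Adora2a, its adenosine receptor partner, -1.63 ± 0.28 (limma adjusted p = 0.00693). Neither was called under trended and robust moderation or with the replicate block, with adjusted p up to 0.136 for Drd2 and 0.194 for Adora2a. Gpr6, an orphan receptor of the same neurons, gave -1.43 ± 0.34, adjusted p = 0.062 (limma), and was not called. For Drd1, 6-month dKO arrays held -1.32 to -0.55 (median -0.95), against 0.25, 0.03, 0.28 and 0.25 in WT. Those of 3 months held 0.08, 0.58 and -0.12 in dKO, against 0.53, -0.09, 0.32 and -0.09 in WT. Drd1, the receptor of the direct pathway, gave -1.16 ± 0.24 (limma adjusted p = 0.0245) and was not called without 6-month WT replicates 3 or 4, 3-month dKO replicate 2, or 3-month WT replicates 2 or 4 (adjusted p up to 0.106). Its 6-month dKO arrays too lay below all others. Chrm4, a muscarinic receptor of the same pathway, gave -0.84 ± 0.21, adjusted p = 0.0673. The difference in growth between the pathways was not tested. Of 17 interneuron genes 1 (5.88%) was called lower, against 0.536% of all genes. It was Slc18a3, the vesicular acetylcholine transporter, with -1.62 ± 0.30 (limma adjusted p = 0.0134). Without 3-month dKO replicate 2 its adjusted p was 0.0606. The acetylcholine-making enzyme of the same cells, Chat, gave 0.09 ± 0.16, adjusted p = 0.877.

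Of 66 synaptic and excitability genes measured 1 (1.52%) was called lower, against 0.536% of all genes. It was Cacna2d3, a calcium channel subunit, with -0.71 ± 0.16 (limma adjusted p = 0.0368). Cacna2d3 was not called without 6-month dKO replicate 5, 6-month WT replicates 2, 3 or 4, 3-month dKO replicates 2 or 3, or 3-month WT replicates 2, 3 or 4 (adjusted p up to 0.161). The median growth of the list was -0.11. Per array the list stood at -0.36 to -0.20 in 6-month dKO, -0.03 to -0.01 in 6-month WT, 0.05 to 0.17 in 3-month dKO and 0.17 to 0.24 in 3-month WT, so it was lower in dKO at both ages and lower with age in both genotypes. None of 23 activity-induced genes was called. Their median growth was 0.02.

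Large losses also came from genes that no list holds. Gkn3 values were -1.79 to -1.15 (median -1.39) in 6-month dKO, against 0.13, -0.04, 0.25 and 0.00 in 6-month WT. In 3-month dKO they were 0.52, 0.88 and 0.30, against 0.02, -0.35, -0.04 and -0.13 in 3-month WT. Gkn3, a gastrokine, was higher on 3-month dKO arrays than in 3-month WT and below all other arrays at 6 months, with growth of -2.21 ± 0.19 (limma adjusted p = 3.03e-06). Abi3bp, an extracellular matrix protein, and Dmkn, a skin protein, took the same turn, with effects of -1.05 at 6 months and 0.78 at 3 months for Abi3bp and -1.37 at 6 months and 0.75 at 3 months for Dmkn. Their growth was -1.83 ± 0.26 (limma adjusted p = 0.00126) and -2.11 ± 0.43 (limma adjusted p = 0.023), and Dmkn was not called without 6-month WT replicate 4, 3-month dKO replicates 2 or 3, or 3-month WT replicates 2, 3 or 4 (adjusted p up to 0.0925). Nexn, an actin-binding protein, gave -1.83 ± 0.22 (limma adjusted p = 0.000208), with a change of -1.12 in dKO and 0.71 in WT between the ages. Gask1b gave -1.80 ± 0.33 (limma adjusted p = 0.0129). Further called genes, picked after their values were seen, were the activin subunit Inhba (-1.61), the checkpoint protein Clspn (-1.61), Gprin3 (-1.46), the clock output factor Dbp (-0.80), the vitamin D receptor Vdr (-0.73) and the kinase Jak2 (-0.62), each with its growth.

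**Figure D4:**
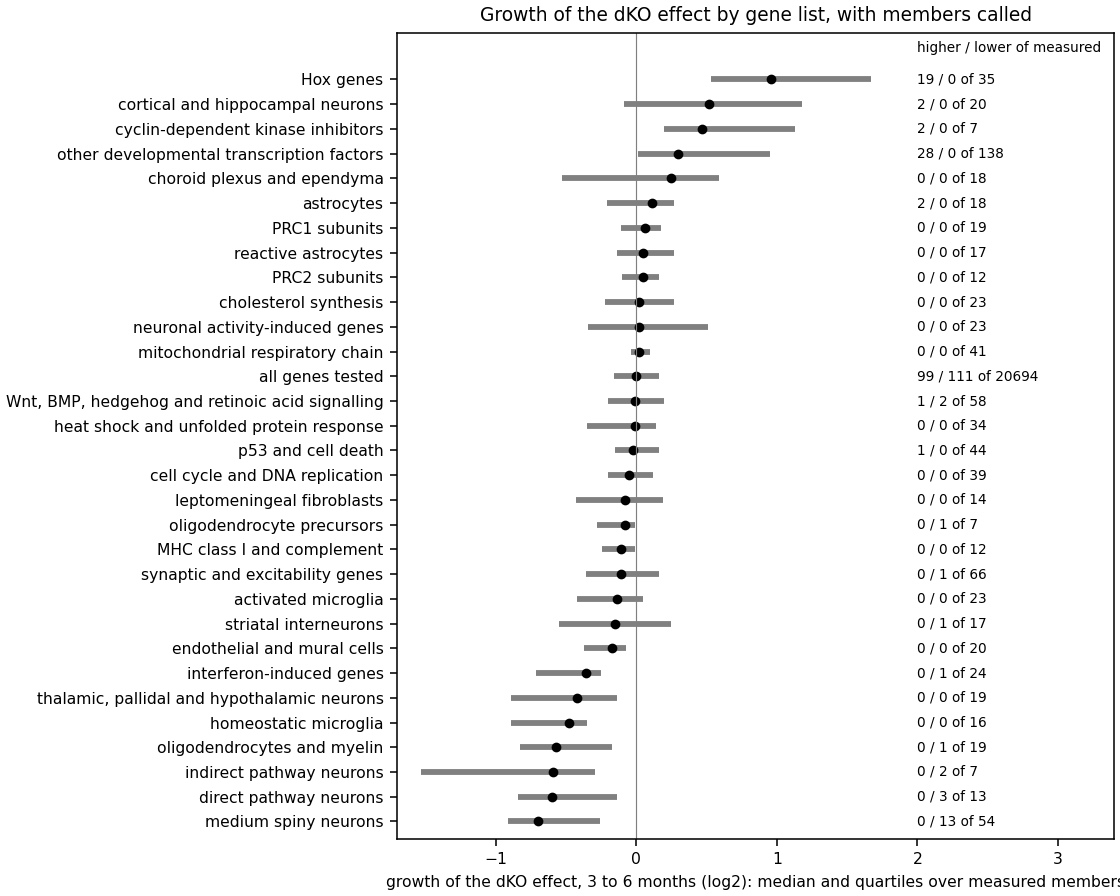
Growth of the dKO effect between 3 and 6 months (log2) over the measured members of each gene list, as median (point) and quartiles (bar), with the members called higher and lower at the right. Hox genes stand highest with a median of 0.96 and 19 of 35 called higher. The 3 lists of medium spiny neurons, which share members, stand lowest, with 13 of 54 called lower in the main one.

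Glial and immune lists held few called genes. These lists hold only some genes of each cell type, so called genes outside them are not counted. Of 18 astrocyte genes 2 (11.1%) were called higher, against 0.478% of all genes: Aldoc, a glycolytic enzyme, and Fgfr3, a growth factor receptor. The median growth was 0.11. In 6-month dKO, Aldoc lay at 0.78 to 1.45 (median 1.03), against -0.19, -0.25, -0.14 and -0.40 in 6-month WT. Values at 3 months were -0.08, -0.04 and 0.02 in dKO, against -0.19, 0.02, -0.17 and 0.00 in WT. Aldoc was thus above all other arrays in 6-month dKO, with growth of 1.24 ± 0.18 (limma adjusted p = 0.00201). Its second probe set gave 0.14 ± 0.09 (adjusted p = 0.579), and the mean over both 0.69. Fgfr3 gave 0.69 ± 0.13 (limma adjusted p = 0.0139), on a change with age of -0.24 in dKO and -0.93 in WT, and it lost its call without 3-month dKO replicate 2 (adjusted p = 0.0663). Serpina3n, a marker of reactive astrocytes, gave 1.51 ± 0.36 (limma adjusted p = 0.0561), and none of the 17 genes of that list was called.

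Of 19 oligodendrocyte genes 1 (5.26%) was called lower, against 0.536% of all genes. Growth was negative in 18, against 10298 of 20694 over all genes, with a median of -0.57. Per array, Fa2h stood at -0.62 to -0.12 (median -0.30) in 6-month dKO, against 0.04, 0.20, 0.18 and 0.21 in 6-month WT, and at -0.39, -0.26 and -0.48 in 3-month dKO, against -0.53, -0.78, -0.86 and -0.75 in 3-month WT. Fa2h makes hydroxylated fatty acids of myelin. Its dKO arrays lay below WT at 6 months and above WT at 3 months. The change with age was 0.05 in dKO and 0.89 in WT, for a growth of -0.84 ± 0.16 (limma adjusted p = 0.0134) that was not called without 3-month dKO replicate 2 (adjusted p = 0.0665). Pllp, the myelin protein plasmolipin, is on no list and had the same course. It changed by 0.03 in dKO and 1.13 in WT, with growth of -1.10 ± 0.22 (limma adjusted p = 0.0209). It was not called without 6-month WT replicates 3 or 4, 3-month dKO replicates 1 or 2, or 3-month WT replicates 2, 3 or 4 (adjusted p up to 0.0925). Gjb1, Nipal4, Padi2, Myo1d, Insc and Gpr37, on no list and picked after their values were seen, were called lower too (-1.21, -1.12, -1.09, -1.02, -1.02 and -0.79). With age they rose by 0.59 to 0.95 in WT and changed by -0.55 to 0.17 in dKO. These genes were not followed without each array, and their cell type was not tested. Cacng4, a glutamate receptor partner of oligodendrocyte precursors, gave -0.96 ± 0.19 (limma adjusted p = 0.0229) and was not called without 6-month WT replicates 3 or 4, 3-month dKO replicate 2, or 3-month WT replicates 2 or 4 (adjusted p up to 0.103). The chief myelin gene Mbp gave 0.12 ± 0.24 and was not called (limma adjusted p = 0.894).

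All 16 genes of homeostatic microglia had negative growth, against 10298 of 20694 over all genes. Their median was -0.48, but none was called. Their per-array median was -1.03 to 0.05 in 6-month dKO, -0.04 to 0.16 in 6-month WT, -0.02 to 0.16 in 3-month dKO and -0.15 to 0.04 in 3-month WT. Within 6-month dKO the arrays spread widely: replicates 1 and 2 were at 0.05 and 0.03, and replicate 4 at -1.03. Fcrls, a microglial receptor, had the largest value, -1.62 ± 0.68 (limma adjusted p = 0.339). Of 24 interferon-induced genes 23 were negative, with a median growth of -0.36, and 1 (4.17%) was called lower, against 0.536% of all genes. Gbp3, a guanylate-binding protein, alone was called, at -1.11 ± 0.22 (limma adjusted p = 0.0235), and was not called without 6-month WT replicate 4, 3-month dKO replicates 2 or 3, or 3-month WT replicates 3 or 4 (adjusted p up to 0.0897). None of 23 activated microglia genes, 12 genes of MHC class I and complement, 20 of vessels and 14 of leptomeningeal fibroblasts was called, with medians of -0.14, -0.11, -0.17 and -0.08.

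**Figure D5:**
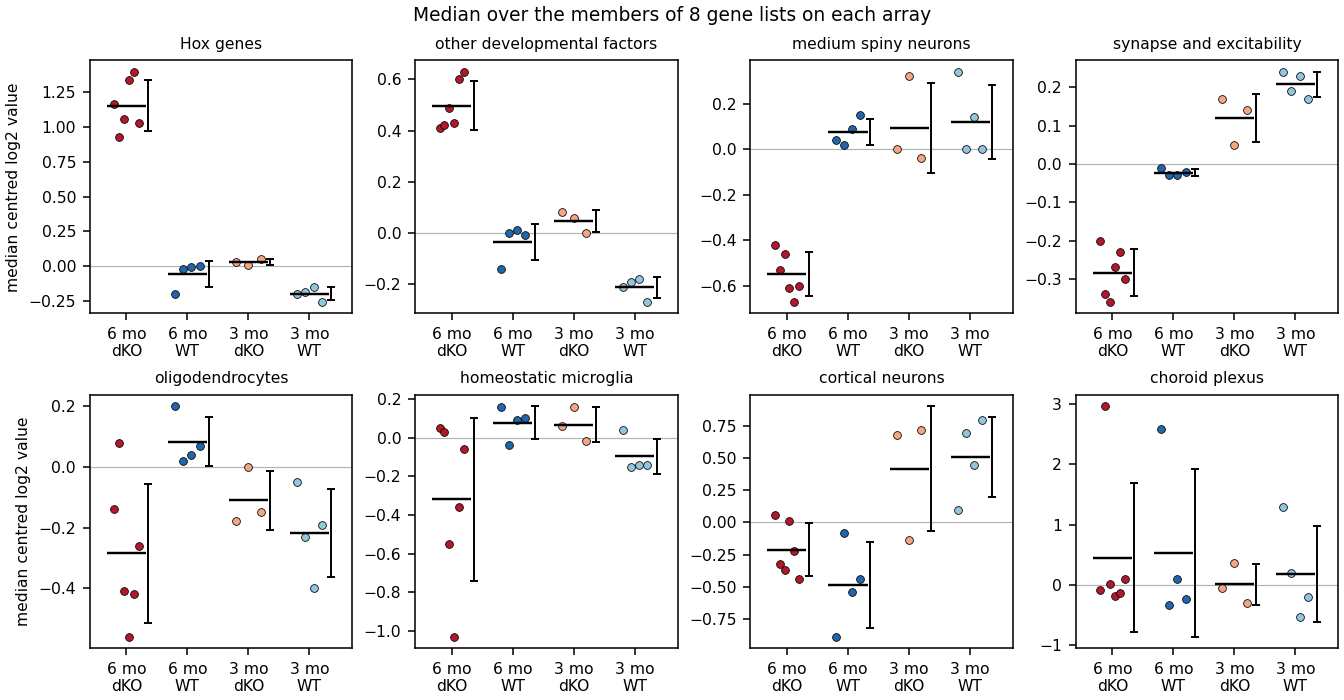
Median centred log2 value over the members of 8 gene lists on each array, in 6-month dKO, 6-month WT, 3-month dKO and 3-month WT. Points are arrays, lines are means and bars are ± SD. The Hox list is at 0.93 to 1.40 and the medium spiny neuron list at -0.67 to -0.42 in 6-month dKO, apart from all other arrays, while microglia spread within 6-month dKO and cortical and choroid plexus genes spread within groups.

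In a smaller class WT changed more with age than dKO, though dKO could change as well. The WT change with age was the larger one in 14 genes called higher and 22 called lower. Plin4 ran from -0.57 to 1.40 (median 0.62) in 6-month dKO, against -0.36, -1.29, -0.64 and -1.60 in 6-month WT. At 3 months it was at 0.51, 0.00 and 0.00 in dKO, against 1.24, 0.95, 0.60 and 0.94 in WT. The 6-month groups overlapped, and the 3-month WT arrays were above those of 3-month dKO. Plin4, a coat protein of lipid droplets, changed with age by 0.41 in dKO (limma adjusted p = 0.392) and by -1.91 in WT (adjusted p = 0.00169), and its growth was 2.32 ± 0.48 (limma adjusted p = 0.0253). Sult1a1, a sulfotransferase, gave a change of 0.83 in dKO and -1.31 in WT, and growth of 2.14 ± 0.35 (limma adjusted p = 0.00594), called without each array. On the 6-month arrays Cckar was at -0.72 to 0.71 (median 0.32) in 6-month dKO, against 2.35, 1.30, 1.60 and 1.57 in WT. The 3-month values were -0.26, -0.18 and -0.02 in dKO, against -0.64, -0.47, -0.15 and -0.43 in WT. The 6-month WT arrays were above all others. Cckar, a cholecystokinin receptor, changed with age by 0.35 in dKO (adjusted p = 0.34), against a rise of 2.13 in WT (adjusted p = 0.000168), so its growth was -1.78 ± 0.37 (limma adjusted p = 0.0262). Plin4 was not called without 6-month WT replicates 2 or 4, 3-month dKO replicates 2 or 3, or 3-month WT replicates 2 or 4 (adjusted p up to 0.101). Cckar was not called without 6-month WT replicates 3 or 4, 3-month dKO replicates 1, 2 or 3, or 3-month WT replicates 2 or 4 (adjusted p up to 0.0881).

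Bhlhe22 and Neurod2, transcription factors of cortical projection neurons, were in the same class. The values of Bhlhe22 were -0.16 to 1.28 (median 0.56) in 6-month dKO, against -1.87, -1.45, -1.78 and -1.86 in 6-month WT, and at 3 months 0.34, -0.46 and 0.72 in dKO, against -0.83, 0.27, 0.00 and 0.68 in WT. The 6-month WT arrays were below all others. Bhlhe22 grew by 2.17 ± 0.44 (limma adjusted p = 0.024) with a change of 0.40 in dKO and -1.77 in WT, and Neurod2 by 1.83 ± 0.38 (limma adjusted p = 0.0253) with 0.37 in dKO and -1.46 in WT. Both belong to the list of 20 cortical and hippocampal genes, of which they are the 2 (10%) called higher, against 0.478% of all genes. None of the list was called lower, and its median growth was 0.52. That list was lower at 6 months than at 3 months in WT, with per-array medians of -0.89 to -0.08 against 0.10 to 0.80. The mean over Neurod2 probe sets grew by 1.02. With the list's own median, which both genes enter, as a covariate, Bhlhe22 grew by 1.72 and Neurod2 by 1.42 (limma adjusted p = 0.0195 and 0.011). On high-Xist arrays neither was called. Bhlhe22 was not called without 6-month WT replicates 3 or 4, 3-month dKO replicate 2, or 3-month WT replicates 2, 3 or 4 (adjusted p up to 0.108), and Neurod2 was not called without 6-month WT replicate 3, 3-month dKO replicate 2, or 3-month WT replicates 2, 3 or 4 (adjusted p up to 0.114). With the same covariate, WT change with age was called for 20 probe sets higher and 114 lower, against 2331 and 3443 without it. The list median parted all WT arrays of 3 months from those of 6 months. So the covariate takes up WT change with age by construction, and nothing is read from the fall.

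The genotype effect was smaller at 6 months than at 3 months in 2 of the 99 genes called higher and 13 of the 111 called lower. For Cdhr1, 6-month dKO arrays held -0.27 to 0.54 (median -0.07), against -0.30, 0.04, 0.04 and -0.20 in WT. Those of 3 months held 1.50, 1.88 and 1.0 in dKO, against 0.23, -0.56, -0.36 and -0.62 in WT. Aldh1a7 values were -0.93 to 0.08 (median -0.19) in 6-month dKO, against 0.04, 0.00, -0.87 and -0.32 in 6-month WT. In 3-month dKO they were 1.61, 1.02 and 1.12, against 0.04, -0.16, -0.19 and -0.20 in 3-month WT. In both, a cadherin of photoreceptors and an aldehyde dehydrogenase, dKO arrays stood above WT at 3 months and overlapped WT at 6 months. The effects were 0.17 at 6 months and 1.79 at 3 months for Cdhr1 and -0.08 at 6 months and 1.38 at 3 months for Aldh1a7, with growth of -1.62 ± 0.31 (limma adjusted p = 0.0172) and -1.46 ± 0.31 (limma adjusted p = 0.0295). Cdhr1 was not called without 3-month dKO replicate 2, or 3-month WT replicate 4 (adjusted p up to 0.0875). Aldh1a7 was not called without 6-month WT replicates 1, 2 or 4, 3-month dKO replicates 1 or 2, or 3-month WT replicates 2, 3 or 4 (adjusted p up to 0.102). Cnmd, chondromodulin of cartilage, had effects of 0.20 at 6 months and 1.45 at 3 months and growth of -1.25 ± 0.27 (limma adjusted p = 0.0338), and was called in 7 of 17 fits without 1 array. Serpinb1a, a protease inhibitor, changed with age by 0.05 in dKO and 1.45 in WT, which gave effects of -0.65 at 6 months and 0.75 at 3 months, with growth of -1.40 ± 0.23 (limma adjusted p = 0.00507).

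The remaining lists held no called gene. They were the mitochondrial respiratory chain (41 genes, median growth 0.02), the heat shock and unfolded protein response (34 genes, -0.01), cholesterol synthesis (23 genes, 0.02), the choroid plexus and ependyma (18 genes, 0.25) and thalamic, pallidal and hypothalamic neurons (19 genes, -0.42). In the last list the hypothalamic peptide Pmch had a growth of -3.71 ± 1.02 (limma adjusted p = 0.11). It was at most 1.0 on any 6-month dKO array, against 4.18, 5.37, 3.04 and 0.38 on those of 6-month WT. Genes of other brain regions thus differed between single arrays, and their part in the calls was not tested.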

How the data were processed

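RNA of mouse striatum was measured on Affymetrix arrays from biotinylated cRNA, per the labels' protocols. The deposited values are log2 expression values, for which the submitters' processing notes name RMA (its version is not given in the sources used here). In the deposited log2 values 1 or more arrays stood at exactly 0 in 39666 of 45101 probe sets (87.95%), so they were centred per probe set. 2 columns that share a name, both of 6-week samples, were not used. Gene symbols came from the deposited normalized table, and 1159 were updated through the RefSeq table, which held 18343 of the 20694 genes (88.64%). A further 1253 probe sets with several symbols and 5705 with none were left out.

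The 4 group means of the 17 arrays were fitted with limma 3.58.1 (R 4.3.3), and growth was taken as their difference of differences, two-sided, with p-values adjusted by Benjamini-Hochberg over all 38143 probe sets. Residual degrees of freedom were 13, and 4.96 more came from the prior. A gene was called at an adjusted p under 0.05. It was represented by its probe set with the largest SD over all 23 arrays, since no level is left to filter on. Group labels were not used, but the choice is not neutral to growth. It favours probe sets that shift with genotype or age, so sizes and shares per gene can lean upwards. The shares called higher and lower were 0.322% and 0.448% of probe sets, against 0.478% and 0.536% of genes. Errors of growth are standard errors. Genes were named by rule: the 12 largest called values in each direction, the 5 largest with an effect smaller at 6 than at 3 months, the 5 largest where WT changed more than dKO, and up to 4 called members of each list or, where none was called, its largest value. Genes without names (clones, predicted, Riken) were left out of the naming. A few genes are not reported here by name. The members and the 30 gene lists were chosen with earlier results of these data known, and any gene named outside the rule was chosen after its values were seen.

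Other settings were array weights, a replicate block, all 23 arrays, high-Xist arrays only, quantile normalization, and trended and robust moderation. Covariates were the cortical list, the choroid plexus list, Xist and Gapdh 3' minus 5'. Further settings were other ways of summarizing probe sets, and leaving out each array. Replicate numbers did not pair the samples: deviations of the 7 same-numbered pairs correlated at -0.32 to 0.12. The replicate block thus spends degrees of freedom with no pairing to gain from. Arrays without a same-numbered partner add nothing to its growth, so calls can be lost in it by construction. Arrays of a group are separate biological replicates per the design text. The fits were tested on simulated data. Figures were drawn with matplotlib 3.10.9 (Python 3.11.15).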

Additional observations from a re-analysis of the deposited data

Results flagged for a closer look

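The tests of growth flagged 123 probe sets with a higher and 171 with a lower dKO effect at 6 months than at 3 months, described above. Single arrays also lay far from the rest of their group, by a Dixon test at the 95% level, in 14 of 348 combinations of gene and group of 4 to 6 arrays, where chance gives about 1 in 20. Kl, a choroid plexus gene, was at 3.77 on 6-month dKO replicate 2, against -0.07 to 0.90 on the others of that group, and at 3.68 on 6-month WT replicate 1, against -0.81 to -0.06. The hypothalamic peptide Pmch was at 0.30 on 3-month WT replicate 4, against -0.62 to -0.50. Spp1 was at 0.76 on 6-month WT replicate 1, against -0.10 to 0.00. Itm2a was at 0.00 on 6-month WT replicate 2, against 0.11 to 0.13, and at 0.12 on 3-month WT replicate 1, against -0.08 to -0.05.

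Fos, an activity-induced gene, was at -1.71 on 6-month dKO replicate 4, against 0.11 to 1.17, and at -0.82 on 3-month WT replicate 1, against 0.05 to 0.19. Aebp2, a PRC2 subunit, was at -1.61 on 6-month dKO replicate 4 as well, against -0.66 to -0.32, and that array also had the lowest microglia median. Among called genes, Hoxc5 was at 2.72 on 6-month dKO replicate 3, against 0.99 to 1.57, and Pde1b at -0.36 on the same array, against -0.65 to -0.57. Drd1 was at 0.03 on 6-month WT replicate 2, against 0.25 to 0.28. Tbx3 was at -0.22 on 3-month WT replicate 1, against 0.00 to 0.02, and Pllp at -0.66 on the same array, against -0.96 to -0.92.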

How the results depend on the processing

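Growth was called for 123 probe sets higher and 171 lower. With array weights the counts were 492 and 825. Under trended and robust moderation they were 59 and 65, on high-Xist arrays only (chosen after seeing the data) 57 and 65, and at an adjusted p under 0.01 49 and 50. The choroid plexus covariate gave 195 and 376. The Gapdh covariate gave 77 higher, all 23 arrays 186 higher, and the cortical covariate 90 lower. Leaving out each array gave 56 to 214 higher and 50 to 354 lower. The replicate numbers are only shared numbers here, and the fit with them as a replicate block called 40 higher and 9 lower; it gives no value for change with age. In dKO, change with age was called for 4257 probe sets higher and 5386 lower. The higher count was 2526 with the cortical covariate, 2752 with the mean of a gene's probe sets, 1762 at 0.01 and 2550 to 4957 without each array. The lower count was 3280 with 1 probe set for each gene, 2732 with the mean, 2963 at 0.01 and 3717 to 5960 without each array. In WT, the counts of 2331 higher and 3443 lower were 20 and 114 with the cortical covariate, 6457 and 6893 with array weights, 689 and 1339 at 0.01, and 1250 to 3517 and 1952 to 4130 without each array. The WT higher count was 1423 with the Gapdh covariate and 3908 under quantile normalization. The WT lower count was 2065 with 1 probe set for each gene and 1731 with the mean. The causes of these moves were not tested, beyond the fewer features or arrays and stricter threshold that some settings use by construction. Of 3712 recomputed values of named genes, 3086 kept direction and side of the threshold, 568 lost the call, 40 gained it and 18 changed sign. Under quantile normalization the sign turned for Wt1 (-0.03), Pou4f2 (-0.78), Twist1 (-0.66) and Irx5 (-1.34), the last also on high-Xist arrays (-0.18). Of these Wt1 alone had been called in the reported fit. The Gapdh covariate turned Kl (-0.44), Ezh2 (-0.13) and Calcr (0.01), the cortical covariate Calcr (0.01), and the mean of probe sets Ezh1 (0.03), none of them called. Leaving out each array gave -0.26 to 0.07 for Ezh1 and -0.05 to 0.10 for Ezh2.

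Without marker levels, low signal cannot be told from absence, and the smallest group holds 3 arrays. Of the 45 genes that lost a call, 43 did so without replicate 2 of 3-month dKO, but 32 did so without 3-month WT replicate 4, 30 without 3-month WT replicate 2 and 28 without 6-month WT replicate 4.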

Other observations

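Of 96 genes called higher with a chromosome in the RefSeq table, 12 lay on chromosome 11, and of 105 called lower 8 did. That chromosome holds 7.94% of all located genes, the Hoxb cluster and Ezh1. Other chromosomes were not counted. Genes with further probe sets gave mostly the same direction, with 69 of 80 further probe sets of the genes called higher and 73 of 85 of those called lower having growth of the same sign, of which 10 and 16 were called themselves. Across all genes the median change with age was 0.04 in dKO and 0.04 in WT.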
